A study of Mus musculus with 2 samples.

Results

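C-type lectin receptors are single-pass surface proteins whose outer part folds as a C-type lectin-like domain. In mouse, most of their genes carry the prefix Clec or Klr. The genes described here are the protein-coding RefSeq genes whose symbols start with Clec and a digit or with Klr and a letter. There are 62 of them among 21887 protein-coding genes outside the mitochondrial genome. The RefSeq table places 2, Klra16 and Klra23, within the first 3 Mb of chromosome 6, ahead of every peak and promoter entry of that chromosome, and they were not scored. The remaining 60, 33 Clec and 27 Klr genes, were scored among 21779 genes.

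Acetylation of histone H4 at lysine 16 (H4K16ac) is a mark of open chromatin that the acetyltransferase KAT8 (MOF) deposits. It was mapped by CUT&Tag, in which an antibody guides a transposase to cut DNA beside the modified histone, in primary mouse macrophages grown from bone marrow in M-CSF (20 ng/ml). Both groups received R848, an agonist of the endosomal receptor TLR7, at 100 ng/ml for 2 h, and each has 1 library: wild type (WT), and KAT8-cKO, which is deficient in KAT8. Not given in the sources used here are the driver of the deletion, the strain, the age and the number of mice. No library of untreated cells was analysed here, so nothing below is a response to R848. Because there is 1 library per genotype, no difference between the lists could be tested or set against replicate spread.

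The Clec and Klr families differ in the cells that use them. Myeloid Clec receptors sense microbial and damaged-cell ligands: Clec7a (Dectin-1) binds beta-glucan, Clec4n (Dectin-2) mannans, and Clec4e (Mincle) and Clec4d glycolipids of mycobacteria, and these receptors signal through the kinase Syk and the adaptor Card9. Klr receptors sit mainly on natural killer cells, where Klra (Ly49) proteins read MHC class I, Klrd1 pairs with Klrc proteins, and Klrk1 (NKG2D) recognises stress ligands. In the natural killer gene complex on chromosome 6, Klrb1 receptor genes lie interleaved with Clec2 genes, some of which encode their ligands.

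The promoters are shown first because the members' promoters differ from those of most genes in their content of CG dinucleotides, and the peak calls are set against that content further on. Each line gives the 250 bases before the start, 5′ to 3′, from RefSeq (GRCm38.p6, the assembly of mm10), with CG in capitals. Clec2l and Clec16a had the members' CG-richest promoters. A peak lay over the start of Clec2l in the KAT8-cKO list alone and over that of Clec16a in the WT list alone. Clec4a3 and Clec4a1 are DCIR-family genes with a peak near the start, Clec4a3 in WT alone and Clec4a1 in both lists. Clec7a, Clec4e and Clec4d are the myeloid receptors named above, and Klrk1 stands for the Klr genes. Clec4n has no entry.
Clec2l (chr6:38662819-38663068, plus strand): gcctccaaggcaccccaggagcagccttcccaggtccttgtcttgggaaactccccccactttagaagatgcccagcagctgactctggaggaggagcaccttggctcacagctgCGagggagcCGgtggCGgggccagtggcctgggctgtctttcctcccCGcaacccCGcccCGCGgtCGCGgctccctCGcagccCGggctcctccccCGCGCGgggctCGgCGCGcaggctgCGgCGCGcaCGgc
Clec16a (chr16:10545089-10545338, plus strand): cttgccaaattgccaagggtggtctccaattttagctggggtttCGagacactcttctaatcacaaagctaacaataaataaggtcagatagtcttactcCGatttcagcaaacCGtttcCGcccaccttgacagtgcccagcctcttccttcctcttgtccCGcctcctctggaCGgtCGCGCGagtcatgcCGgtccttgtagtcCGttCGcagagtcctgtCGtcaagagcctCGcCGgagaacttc
Clec4a3 (chr6:122952265-122952514, plus strand): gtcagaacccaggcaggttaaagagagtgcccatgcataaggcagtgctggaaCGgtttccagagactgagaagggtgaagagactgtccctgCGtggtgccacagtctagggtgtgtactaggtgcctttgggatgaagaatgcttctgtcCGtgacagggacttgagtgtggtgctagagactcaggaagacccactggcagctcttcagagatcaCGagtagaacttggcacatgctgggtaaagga
Clec4a1 (chr6:122921598-122921847, plus strand): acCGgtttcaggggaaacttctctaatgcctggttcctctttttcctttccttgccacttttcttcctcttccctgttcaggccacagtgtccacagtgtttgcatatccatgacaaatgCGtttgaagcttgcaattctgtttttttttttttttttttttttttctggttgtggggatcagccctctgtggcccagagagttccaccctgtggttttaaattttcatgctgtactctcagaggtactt
Clec7a (chr6:129472786-129473035, minus strand): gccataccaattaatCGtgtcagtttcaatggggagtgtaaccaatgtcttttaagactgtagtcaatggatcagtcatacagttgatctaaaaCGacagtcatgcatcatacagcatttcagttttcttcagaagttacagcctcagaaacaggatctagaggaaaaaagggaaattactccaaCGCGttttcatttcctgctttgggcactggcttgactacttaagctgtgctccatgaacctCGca
Clec4e (chr6:123289872-123290121, minus strand): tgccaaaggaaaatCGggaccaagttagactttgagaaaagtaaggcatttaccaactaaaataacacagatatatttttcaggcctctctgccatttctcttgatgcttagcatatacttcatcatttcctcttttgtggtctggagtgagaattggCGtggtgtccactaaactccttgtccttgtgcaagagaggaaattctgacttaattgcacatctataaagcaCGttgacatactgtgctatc
Clec4d (chr6:123261857-123262106, plus strand): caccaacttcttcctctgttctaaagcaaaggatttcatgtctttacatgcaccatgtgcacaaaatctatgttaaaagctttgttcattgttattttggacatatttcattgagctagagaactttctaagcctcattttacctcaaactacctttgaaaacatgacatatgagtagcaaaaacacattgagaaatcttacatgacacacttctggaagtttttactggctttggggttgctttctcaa
Klrk1 (chr6:129623865-129624114, minus strand): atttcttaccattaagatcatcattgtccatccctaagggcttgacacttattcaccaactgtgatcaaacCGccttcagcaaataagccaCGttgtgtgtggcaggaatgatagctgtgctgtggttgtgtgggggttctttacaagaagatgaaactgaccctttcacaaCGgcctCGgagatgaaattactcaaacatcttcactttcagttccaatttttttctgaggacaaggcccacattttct
Clec2l held 21 CG in this stretch and Clec16a 15. Clec7a held 5, Clec4a3 and Klrk1 4 each, Clec4e 3, Clec4a1 2 and Clec4d 0.

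Neither family was widely marked. A gene counts as marked if its start or its 3′ end has a deposited peak no more than 1 kb away. In the WT list 11 of 33 Clec genes (33.3%) and 0 of 27 Klr genes were marked, against 47.1% of all protein-coding genes and 43.4% of the 1120 on chromosome 6. In the KAT8-cKO list 5 Clec genes (15.2%) and 1 Klr gene (3.70%) were marked, against 43.5% of all genes and 39.7% on chromosome 6. Both lists marked 4 Clec genes, Clec2l, Clec4a1, Clec11a and Clec10a (35.9% of all genes were marked in both). The WT list alone marked Clec5a, Clec4a3, Clec4a2, Clec2i, Clec2d, Clec14a and Clec16a, which is 7 of 33 Clec genes and 7 of all 60 members (background 11.1%). The KAT8-cKO list alone marked Clec4f and Klrb1a, 1 of 33 Clec genes and 2 of all 60 members (background 7.56%). The other 21 Clec genes had no peak at an end in either list: Clec4a4, Clec4b1, Clec4b2, Clec4n, Clec4d, Clec4e, Clec2h, Clec2g, Clec2f, Clec2e, Clec2m, Clec12a, Clec12b, Clec1b, Clec9a, Clec1a, Clec7a, Clec4g, Clec18a, Clec3a and Clec3b. The other 26 Klr genes had none either: all 11 Klra genes, 4 of 5 Klrb genes, 3 Klrc genes, 2 each of the Klrg and Klri genes, and Klrd1, Klre1, Klrh1 and Klrk1.

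**Figure D1:**
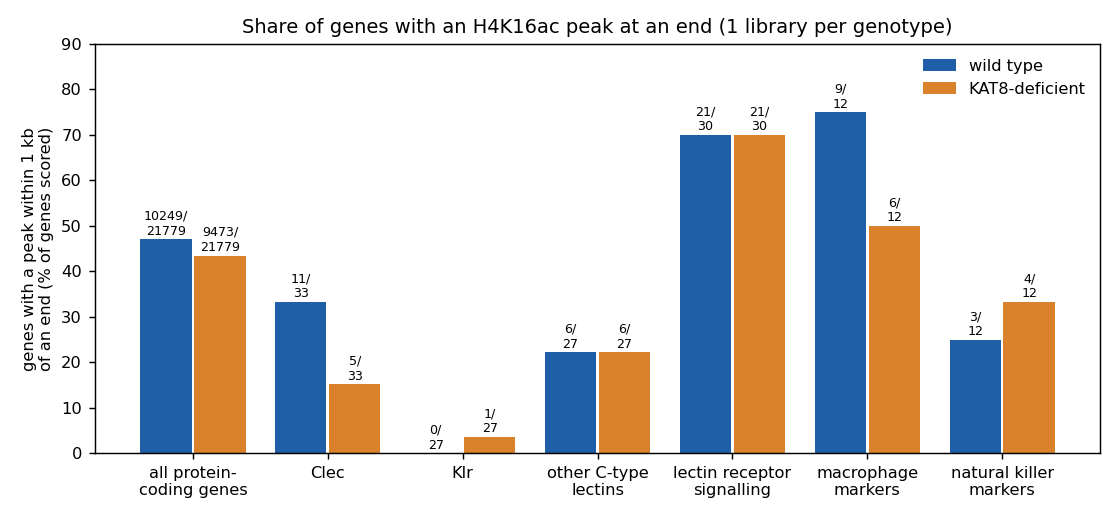
Percent of genes with an H4K16ac peak within 1 kb of an end (vertical axis) in the WT and KAT8-cKO lists, for all genes, the Clec and Klr families and fixed comparison lists. Numbers above the bars are genes marked over genes scored, with 0 of 27 Klr genes in WT and 1 of 27 in the KAT8-cKO list.

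The marked Clec genes carried peaks of ordinary height. The highest fold over the peak caller's background at each marked Clec gene had a median of 3.26 in WT and 3.04 in the KAT8-cKO list, beside 3.42 and 3.125 over all marked genes. These folds are the authors' own values and rank peaks only within a list. They are coarse: 36.5% of all WT peaks had a fold on a multiple of 0.2443, and 43.3% of all KAT8-cKO peaks on a multiple of 0.2135. Such folds often tie, and small differences between them carry little meaning. Counting peaks that reach a −log10 q of 1.3, a q of about 0.05, 7 Clec genes were marked in WT and 5 in the KAT8-cKO list, beside 37.1% and 31.5% of all genes. With the bar raised to a −log10 q of 5, Clec11a in WT was the 1 member left, beside 12.5% and 6.02% of all genes.

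The 4 myeloid receptors Clec4d, Clec4e, Clec4n and Clec7a had no peak within 1 kb of an end in either list. Clec4d (123262107 to 123275268; positions are mm10, on chromosome 6 unless another is named) had 1 peak inside the gene, and in WT it had the highest −log10 q of the peaks in the chromosome 6 clusters, though not the highest fold, which was at Clec2i. It lay at 123263974 to 123264288 with a fold of 4.12 (−log10 q 5.66), 1867 bp from the gene start. The KAT8-cKO peak at the same place, 123264089 to 123264288, had a fold of 2.99 (−log10 q 1.41). The lists thus shared this region, at rank 1 of 39 cluster peaks by −log10 q within the WT list and, tied with 1 other, at rank 8 of 23 within the KAT8-cKO list.

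Between Clec4n and Clec4d the WT list held 3 peaks and the KAT8-cKO list 0. These peaks were picked out after their values were seen. They lay at 123251754 to 123251996, 123252523 to 123253037 and 123255567 to 123255766, with folds of 3.55, 3.59 and 2.83. Their −log10 q values were 2.58, 2.64 and 1.18, so the last did not reach 1.3. The nearest of them was 4730 bp from the end of Clec4n (123229843 to 123247024), whose closest KAT8-cKO peak was 17065 bp away, inside Clec4d. Clec4e (123281789 to 123289871) had its closest peak 17501 bp away in both lists, again the one inside Clec4d. Clec7a (129461591 to 129472785) stood farther off, 68852 bp from a WT and 40481 bp from a KAT8-cKO peak. Of these receptors, a peak inside the gene was thus called at Clec4d alone.

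Among the DCIR-family genes upstream in the same cluster, which encode dendritic cell immunoreceptors, 3 of 4 were marked in WT. In the KAT8-cKO list Clec4a1 alone was. Over all genes the shares were 47.1% and 43.5%. This group is not one of the fixed lists and was set apart with the peak calls known. The other genes of the cluster were marked in neither list. Clec4a1 (122921848 to 122934619) was marked in both lists by overlapping peaks just inside the gene. The WT summit lay 778 bp and the KAT8-cKO one 1002 bp after the start, with folds of 4.10 and 3.84 and −log10 q values of 4.86 and 3.49. Weaker peaks lay upstream of it in each list (2.54 and 2.56, separated by 2 bp) and, in WT, past its 3′ end (2.99). Clec4a3 (122952515 to 122969878) had a WT peak over its start, with a summit at −77 bp, fold 3.26 and −log10 q 1.95. In the KAT8-cKO list its start had no peak, but 2 peaks lay inside the gene, the stronger at 122957028 to 122957297 with a fold of 3.80 (−log10 q 3.43). Clec4a2 (123122690 to 123143999), which encodes the inhibitory receptor DCIR, had 2 WT peaks about its start with folds of 2.44 and 3.42 (−log10 q 0.435 and 2.17). The closest KAT8-cKO peak was 85576 bp from the upstream one. Clec4a4 and Clec4b1 had no peak inside the gene or at an end in either list. Clec4b2 had 1 WT peak inside the gene, with a fold of 2.93 (−log10 q 1.18).

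Of the fixed list of 15 myeloid Clec symbols, 14 were found in the table (Clec6a was not), and 5 were marked in WT (35.7%) and 2 in the KAT8-cKO list (14.3%). The other 19 Clec genes gave 6 (31.6%) and 3 (15.8%), and all genes 47.1% and 43.5%, so the myeloid genes did not stand apart from the other Clec genes in these counts. Outside the Clec4 cluster these were Clec5a, which partners the adaptor DAP12, and Clec10a, a galactose-binding lectin. Clec5a (40574898 to 40585805) had a WT peak past its 3′ end with a fold of 2.78 (−log10 q 1.16). Clec10a (chromosome 11, 70166623 to 70170836) carried a low WT peak, fold 2.17 and a −log10 q of 0.288, overlapped by a KAT8-cKO peak with a fold of 3.04 (−log10 q 1.65). Clec12a (129349783 to 129365303), an inhibitory receptor for uric acid crystals, was unmarked at its ends but had a WT peak inside, 1169 bp from its start, with a fold of 3.66 (−log10 q 2.73). Its nearest KAT8-cKO peak was 13185 bp away.

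**Figure D2:**
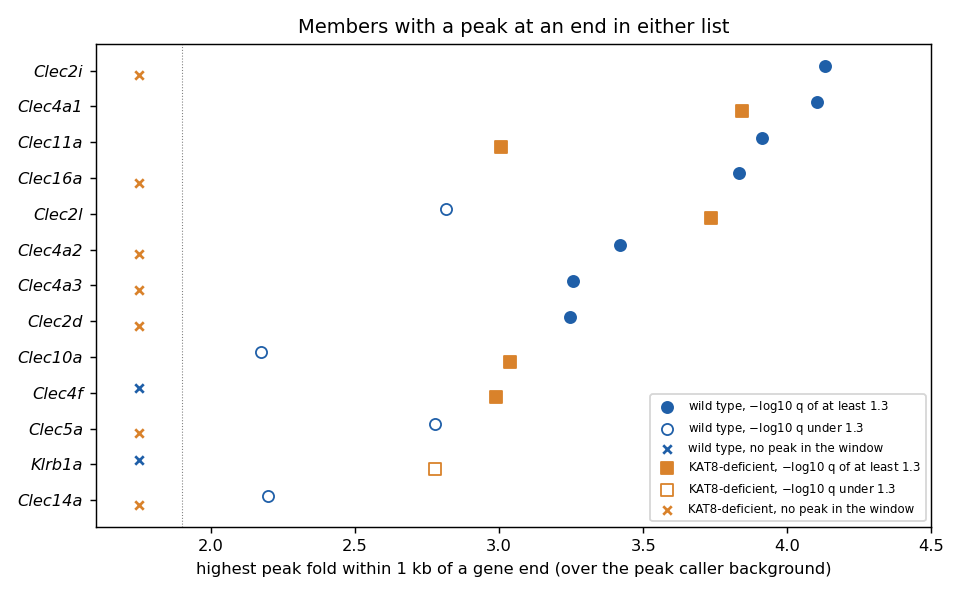
Highest peak fold within 1 kb of an end (horizontal axis) for the 13 members with such a peak in either list. Filled symbols have a −log10 q of at least 1.3, open symbols less, and crosses left of the dotted line mean no peak in the window: 7 Clec genes have a WT symbol alone, and Klrb1a and Clec4f a KAT8-cKO symbol alone.

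The Clec2 genes include ligands of natural killer receptors. Clec2d (129180615 to 129186535), a ligand of an inhibitory Klrb1 receptor, had 2 WT peaks at its start, with folds of 3.0 and 3.25 and −log10 q values of 2.16 and 2.94. It had no KAT8-cKO peak within 8135 bp of the first. Clec2i (128887587 to 128898168) counted as marked in WT alone, although both lists had a peak there. Its WT peak at 128888531 to 128889119 (fold 4.13, −log10 q 4.43) was overlapped by a KAT8-cKO peak at 128888676 to 128889155 (4.20, 4.63) that began 89 bp past the 1 kb limit. That stretch also lies inside BC035044, an overlapping gene, and the peaks cannot be assigned to one of them. Clec2g had peaks inside the gene in both lists, 1 in WT and 3 in the KAT8-cKO list, with folds of at most 3.14 and 2.99. None of the other Clec2 genes of the complex, Clec2h, Clec2f, Clec2e and Clec2m, had a peak inside or at an end.

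The remaining marked Clec genes lie outside the myeloid list. Clec16a (chromosome 16, 10545309 to 10744878) encodes an endosomal protein that bears the family's name but is not a lectin receptor. Its WT peak covered the start (10545301 to 10545711, fold 3.83, −log10 q 3.88) and no KAT8-cKO peak lay there. Upstream, at that end of the neighbouring gene Dexi which faces Clec16a, the lists shared a peak with folds of 4.17 and 4.00 and −log10 q values of 5.25 and 5.21. Inside its 199570 bp Clec16a held 11 WT and 6 KAT8-cKO peaks. Clec11a (chromosome 7, 44303766 to 44306959), which encodes a secreted growth factor, had the highest −log10 q of the marked members in WT, 5.91, at a peak of 1066 bp with a fold of 3.91 inside the gene. The KAT8-cKO list had an overlapping peak (fold 3.62, −log10 q 4.99) that began 65 bp outside the window, and a separate one with its summit at −419 bp (3.01, 2.92) that marked the gene. The windows of Clec11a overlap those of another gene, so these peaks cannot be assigned to it alone. Clec2l (38663069 to 38680865) was marked at its 3′ end in both lists (2.81 and 2.93) and at its start in the KAT8-cKO list alone, with a fold of 3.73 (−log10 q 3.32). Clec14a, an endothelial gene, had a weak WT peak (2.199, −log10 q 0.165). Clec4f, a receptor of liver Kupffer cells, had a KAT8-cKO peak at its start (2.99, 1.41).

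Klr genes lay far from peaks. The 1 marked Klr gene was Klrb1a (128609227 to 128622934), which encodes an NKR-P1 receptor, with a KAT8-cKO peak over its start that had a fold of 2.78 (−log10 q 1.010), under 1.3. Inside genes, WT peaks were found at 3 of 27 Klr genes, Klrg2, Klrb1b and Klra17, and a KAT8-cKO peak at Klrb1a alone. By comparison, 17 and 11 of 33 Clec genes had a peak inside in WT and the KAT8-cKO list, and of all genes 63.3% and 60.3% did. Longer genes have more room for a peak inside, and the genes compared were not matched for length. The median distance from a gene's nearer end to the closest peak was 36267 bp for Klr genes in WT and 74627 bp in the KAT8-cKO list. For Clec genes it was 2865 and 8987 bp, and for all genes 1359 and 1906 bp. Counting the whole gene and 5 kb beyond each end, 20 and 13 Clec genes and 6 and 4 Klr genes held a peak, where 71.3% and 69.3% of all genes did. With both of these windows the Klr share was under the Clec share and the background in both lists. No test of the difference between the families was made, since neighbouring genes share chromatin and the families were chosen with results known.

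Most members lie in clusters on chromosome 6. A run of 3 or more members with at most 500 kb between neighbours was called a cluster, and there were 2. The Clec4 cluster, from Clec4a1 to Clec4e (122921848 to 123289871), holds 9 Clec genes and no other protein-coding gene. The natural killer complex, from Klrb1a to Klra1 (128609227 to 130386874), holds 13 Clec, 24 Klr and 5 other genes. In the Clec4 cluster there were 12 WT and 5 KAT8-cKO peaks, or 32.6 (16.8 to 57.0) and 13.6 (4.41 to 31.7) per Mb, with exact 95% Poisson intervals that cover counting error only. In the natural killer complex there were 27 and 18, or 15.2 (10.01 to 22.1) and 10.1 (6.0 to 16) per Mb. Chromosome 6 as a whole had 20.0 and 19.3 peaks per Mb. The intervals of the 2 libraries overlapped in both clusters. Genes are packed more tightly in the clusters, at 24.5 and 23.6 per Mb against 7.64 on the chromosome.

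Peaks were not spread evenly along the natural killer complex. The interleaved Klrb1 and Clec2 stretch (Klrb1a to Clec2m) held 19 WT and 15 KAT8-cKO peaks, 26.3 (15.8 to 41.1) and 20.8 (11.6 to 34.2) per Mb. The stretch from Clec12a to Clec7a, 0.123 Mb with 6 Clec genes, held 1 WT peak, that inside Clec12a, and 0 KAT8-cKO peaks. Of its genes, Clec12a, Clec9a and Clec7a are in the myeloid list. The densities were 8.13 (0.206 to 45.3) and 0 (0 to 30.0) per Mb, with intervals that include the chromosome's values. The stretch from Klre1 to Klra1, with 19 Klr genes, held 5 and 1, or 6.04 (1.96 to 14.1) and 1.21 (0.0306 to 6.73) per Mb, under the chromosome's values in both lists. The 5 WT peaks there had folds of 2.199 to 3.18, and 4 of them lay between genes. Klra genes are close copies of each other. The treatment of reads that match several places is not given in the sources used here, and its part in the low count was not tested. Among the 5 genes of the complex outside both families, BC035044, Cd69 and Olr1 were unmarked. The other 2, named after their values were seen, were Gabarapl1, marked in WT (3.18), and Tmem52b, marked in the KAT8-cKO list (2.35).

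**Figure D3:**
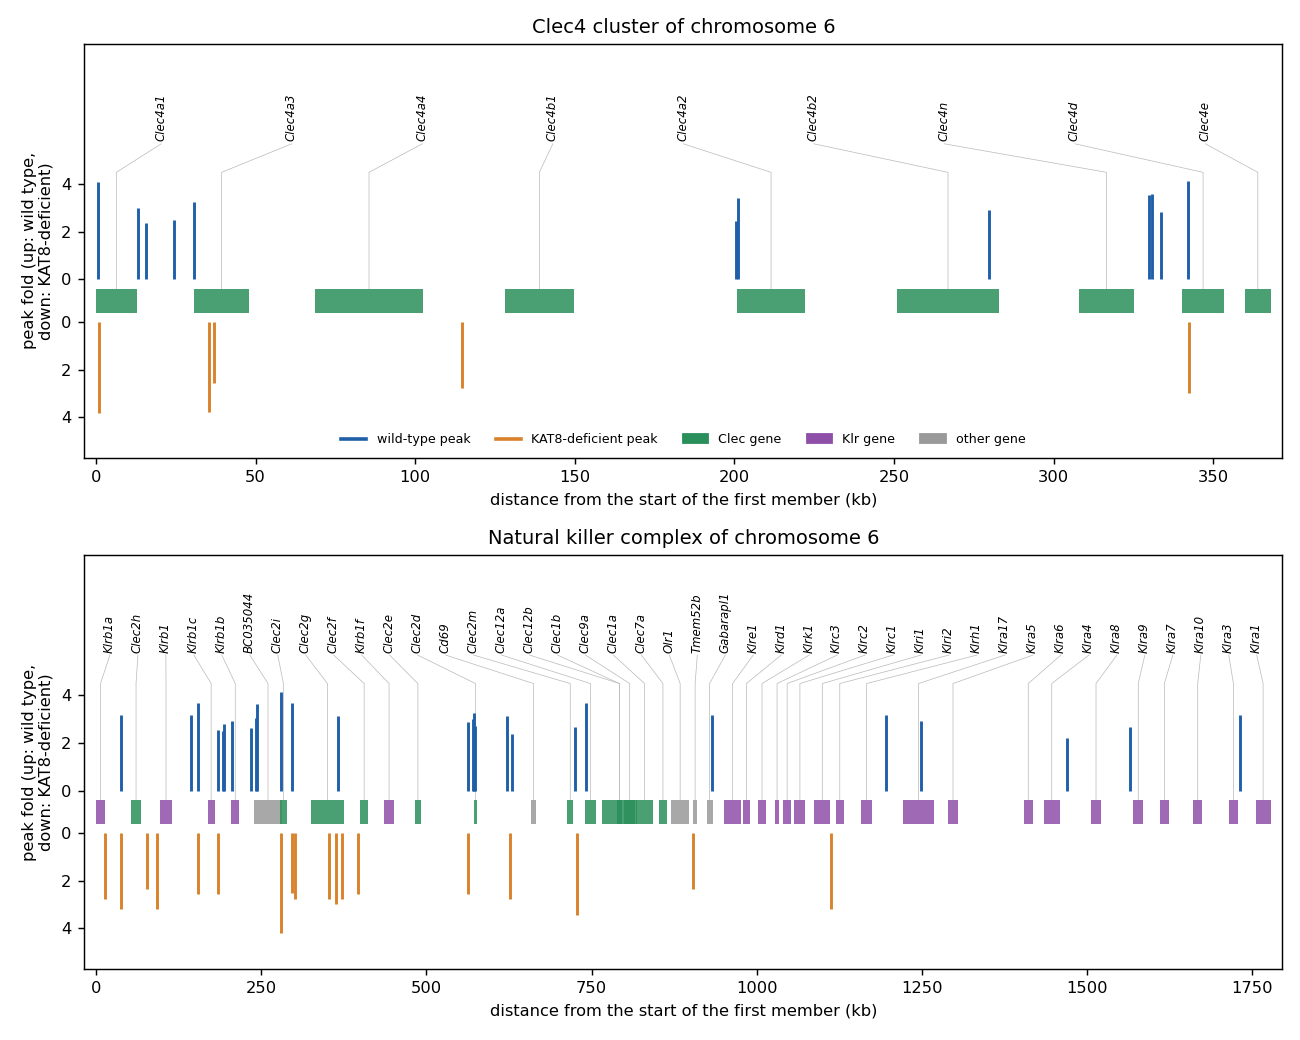
Peaks of the Clec4 cluster (top) and the natural killer complex (bottom) against distance from the first member's start in kb, with peak fold drawn upward for WT and downward for the KAT8-cKO list and genes as blocks coloured by family. The Clec4 cluster holds 12 and 5 peaks, and the Klr genes from Klre1 to Klra1 hold 5 and 1.

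Within each list the cluster peaks were ranked by −log10 q. In WT the first 4 were those inside Clec4d, at Clec4a1, at Clec2i and between Klrb1 and Klrb1c, and each was overlapped by a KAT8-cKO peak. The peak between Klrb1 and Klrb1c, at 128764298 to 128764556, had a fold of 3.66 (−log10 q 3.78) in WT and a fold of 2.56 (0.663) in the KAT8-cKO list. Next in WT came the peak at Clec2d and, tied, the one between Clec2i and Clec2g (3.66, 2.73) and the one inside Clec12a, of which the peak between Clec2i and Clec2g alone was overlapped. In the KAT8-cKO list the first 3 were those at Clec2i, at Clec4a1 and inside Clec4a3, of which the last was not overlapped by a WT peak. Over all peaks at member ends or in the clusters, 11 of 46 WT peaks were overlapped by a KAT8-cKO peak, 23.9% (Wilson 95% interval 13.9 to 37.9). In the other direction 10 of 30 were, 33.3% (19.2 to 51.2). Over all peaks the shares were 33.2% and 35.6%.

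Members with few CG dinucleotides at the promoter were compared with other genes of that kind, in groups chosen after the data were seen. A promoter entry of 300 bases, from 250 before to 50 after the start, was found for 50 of 60 members and for 17492 of all genes. The members' median was 3 CG per window, with 4 for Clec and 2 for Klr genes, against 13 over all genes. Over all genes the share marked was higher with more CG, from 8.36% in WT at 0 to 1 CG to 72.2% at 20 or more, and from 8.03% to 67.1% in the KAT8-cKO list. Of genes with 4 CG or fewer, 14.4% were marked in WT and 13.7% in the KAT8-cKO list. Among members of that kind, 5 of 17 Clec and 0 of 22 Klr genes were marked in WT, and 3 and 1 in the KAT8-cKO list. Against this background the Clec share in WT was above, not below, that of other genes, and the Klr share was below it. Of the 5 Clec genes, Clec5a and Clec11a were marked in WT at the 3′ end alone, which the promoter window does not cover. These counts are small and were given no interval. With 5 CG or more, 5 of 9 Clec genes were marked in WT and 1 of 9 in the KAT8-cKO list, where 61.3% and 56.5% of all such genes were; 0 of 2 Klr genes were marked in either. In WT the Clec share was higher with more CG, and in the KAT8-cKO list it was not (3 of 17 and 1 of 9). The part of CG content in the members' low shares was not tested beyond these groups.

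**Figure D4:**
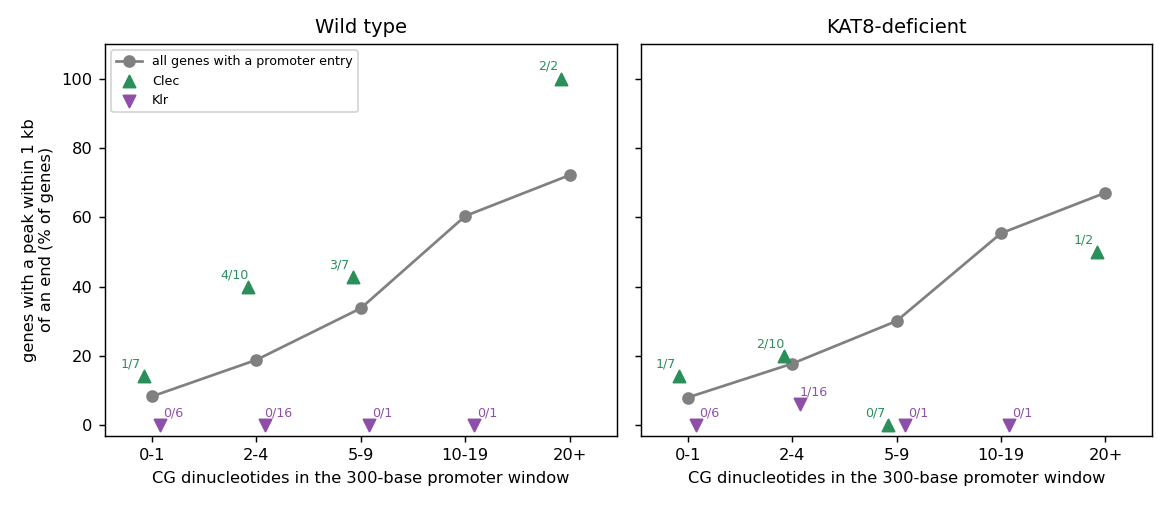
Percent of genes with a peak within 1 kb of an end (vertical axis) by the number of CG dinucleotides in the 300-base promoter window (horizontal axis), for WT (left) and the KAT8-cKO list (right). The grey line is all 17492 genes with an entry, triangles are Clec and Klr genes with counts marked over counted, and the Klr symbols lie at 0 in WT wherever there are Klr genes.

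Motifs of 3 transcription factor families were searched on both strands of the same windows; none of the motifs contains another, and a window can hold several. The core of the macrophage factor PU.1, GAGGAA, occurred in 14 of 26 Clec and 15 of 24 Klr promoters, and in 27.5% of all promoters. Most of the 15 Klr genes are Klra genes, close copies of each other, so these are not separate occurrences. The shares over all promoters were not matched to the members' low CG content. Among the 14 Clec genes were Clec4d, Clec4e, Clec7a and Clec4a1. In WT 6 of these 14 and 0 of the 15 Klr genes were marked, beside 2155 of the 4804 genes with the core over all promoters. The Clec share was thus near that of all genes with the core. The AP-1 motif TGANTCA occurred in 6 Clec promoters, those of Clec4a2, Clec2h, Clec2g, Clec2e, Clec12a and Clec18a, and in 4 Klr promoters, against 7.03% of all. The NF-κB motif occurred in that of Clec2l and in 0 Klr promoters, against 4.57%. Marked and unmarked members alike held the PU.1 core.

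Of 30 genes through which these receptors signal, in a fixed list, 21 were marked in each list (70%), 17 of them in both, where 47.1% and 43.5% of all genes were marked. Among genes with 5 CG or more, 13 of 20 signalling genes were marked in WT and 15 of 20 in the KAT8-cKO list, beside 61.3% and 56.5% of all such genes, so the WT share was near that of other genes with such promoters. Card9, which joins Syk to NF-κB, was marked in both lists with folds of 2.94 and 2.59. Its partners Bcl10 (5.34 and 3.20) and Malt1 (5.57 and 4.47) were also marked in both. So were Ikbkg (6.35 and 2.56), Rel (4.43 and 4.06), Ptpn11 (4.39 and 2.44) and Traf6 (4.19 and 2.99). Syk itself was marked in WT alone, with a fold of 4.18 (−log10 q 4.77), as were Btk and the receptor adaptors Fcer1g and Tyrobp. Inpp5d, Src, Hcst and Prkcd were marked in the KAT8-cKO list alone, and Blnk, Fgr, Lcp2, Nfatc1 and Nfatc2 in neither. The windows of Ikbkg, Card9, Btk, Fcer1g, Tyrobp and Hcst overlap those of other genes, as do those of Cd72, Cd68 and Kat8 below, so their peaks cannot be assigned to 1 gene. The median CG count was 19 for the 23 signalling genes with a promoter entry, against 4 for Clec and 2 for Klr genes. In a fixed list of 27 C-type lectin genes with other names, 6 were marked in each list: Ly75 (5.13 and 3.63), Cd302 (3.18 and 3.15), Cd93 (2.70 and 3.10), Thbd (2.81 and 2.83) and Cd72 (2.34 and 2.36) in both, Asgr2 in WT and Cd209d (2.35) in the KAT8-cKO list. Mrc1, the macrophage mannose receptor, was marked in neither.

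The check of the targeted gene and of cell type can only be made through peaks, which measure neither deletion nor transcript level. Kat8 had a weak WT peak (fold 2.46, −log10 q 0.780) and none in the KAT8-cKO list. Of 12 macrophage markers, 9 were marked in WT and 6 in the KAT8-cKO list, among them Spi1, Mertk, Cebpa, Cd68 and Cd14 in both, and Lyz2 and Cx3cr1 were marked in neither. Most of these peaks were weak. The highest peak reached a −log10 q of 1.3 in WT at Mertk, Cd68 and Cd14 alone (2.69, 1.66 and 1.31). In the KAT8-cKO list it did so at Mertk, Spi1 and Itgam alone (1.87, 1.59 and 1.54). Of 12 natural killer markers, 3 and 4 were marked: Cd244a in both, Itga2 and Il2rb in WT, and Ccl5, Tbx21 and Gzmb in the KAT8-cKO list. The other 6, Ncr1, Nkg7, Gzma, Prf1, Eomes and Xcl1, had no peak at an end in either. Among the natural killer markers, 1.3 was reached at Itga2 alone in WT (1.65), and at Gzmb and Cd244a alone in the KAT8-cKO list (1.87 and 1.41). Over all genes 47.1% and 43.5% were marked, and 37.1% and 31.5% by peaks with a −log10 q of at least 1.3. Dendritic markers gave 2 and 3 of 6, and T cell markers 3 and 1 of 6. The lists held 58229 WT and 55149 KAT8-cKO peaks, and as read totals were not used here the depth behind each call is unknown. An unmarked gene is therefore one with no peak at this depth, not one shown to lack H4K16ac.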

How the data were processed

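H4K16ac CUT&Tag libraries of R848-treated WT and KAT8-cKO macrophages, 1 per genotype, came as 1 peak list each. The submitters' processing notes name mm10 as the build and list MACS2 2.2.7.1, DiffBind and Bowtie 0.12.8 without their roles; not given in the sources used here are calling settings and any control library. The deposited lists give, per peak, the authors' fold enrichment, a score, a −log10 p and −log10 q, and a summit offset; the lowest −log10 p was 2.01 in both, so weak peaks are included, and 47.0% of each list reached a −log10 q of at least 1.3 (q of about 0.05).

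Gene ends came from the RefSeq table of GRCm38.p6, and strand and promoters from its promoter table. On chromosomes 1 to 19 and X, 108 protein-coding genes listed before 3 Mb, where no peak lies, were left out. Marked genes had a peak within 1 kb of an end; regions were shared when they overlapped by at least 1 bp. The end windows of 56 of 60 members overlapped no end window of another gene; the bodies of other genes were not considered. With 1 library per genotype there is no test and no p-value; counts are given beside those over all genes. The members and lists were chosen with earlier results of these data known. The text names Kat8, the 4 myeloid receptors, all marked members, up to 8 signalling and 6 other lectin genes with the highest fold, the 10 cluster peaks with the highest −log10 q over both lists pooled, which serves only to choose names, and other genes of the fixed lists after their values were seen; 1 signalling gene is not reported here. Tested on simulated peaks over 21779 genes, the code recovered 200 of 200 planted genes, and 0 of 1000 genes disagreed with a brute-force count. Windows, thresholds on peaks, shared windows, cluster limits and overlap were varied. Python 3.11.15, pandas 2.3.3, numpy 2.4.6 and scipy 1.17.1 were used. Protein features of the members were not analysed here.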

Additional observations from a re-analysis of the deposited data

How the results depend on the processing

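No paired analysis was possible because each genotype has 1 library and no test was run; leaving out a library was likewise not possible. Counts below are for Clec genes in WT, the KAT8-cKO list and both lists, whose values were 11, 5 and 4, unless said otherwise, and only counts that moved by over 1.5 times and densities or shares that left their interval are printed. Windows of 500 bp gave 7 in WT. Windows of 3 kb gave 17, 10 and 8, with 3 and 2 Klr genes in WT and the KAT8-cKO list. The gene body plus 5 kb beyond each end gave 20, 13 and 11, with 6, 4 and 1 Klr genes, 28 signalling genes in both lists, and 71.3%, 69.3% and 63% of all genes. The annotated start alone gave 7 in WT and 1 in both, of 26 Clec genes with a known strand. A −log10 q of at least 1.3 gave 7 in WT, 2 in both, 0 Klr genes in the KAT8-cKO list and 9 signalling genes in both. The strongest 20000 peaks gave 7 in WT, 2 in both, 0 Klr genes in the KAT8-cKO list, 10 and 8 signalling genes in the KAT8-cKO list and both, and 28.1% and 22.4% of all genes in the same order. A −log10 q of at least 5 gave 1, 0 and 0, with 0 Klr genes in the KAT8-cKO list, 6, 1 and 1 signalling genes, and 12.5%, 6.02% and 4.61% of all genes. For the natural killer complex, peaks per Mb in WT and the KAT8-cKO list were 9.0 and 3.38 with a −log10 q of 1.3 or more, 4.5 and 2.81 for the strongest 20000, and 0 and 0 with 5 or more. The Clec4 cluster had 2.72 and 0 at 5. Chromosome 6 had 9.3 and 9.12, 6.54 and 6.8, and 1.4 and 0.846 under the same thresholds, so at 1.3 the WT density of the complex was close to the chromosome's. Stricter thresholds keep fewer peaks by construction; for the windows the counted length grows or shrinks by construction. Of the values recomputed, 53 passed those limits (6 of them densities of chromosome 6) and 73 did not. Windows that overlap no end window of another gene, joining over 200 kb and an overlap of 50% moved none past them. Joining over 1 Mb took the Clec4 cluster to 44 and 24 peaks, 43.2 and 23.5 per Mb, within the intervals of the shorter cluster but with the KAT8-cKO density now above the chromosome's 19.3 and not below it. Peaks alone, without read totals, leave depth unknown.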
